A study of Caenorhabditis elegans with 2 samples.

Results

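The genes described are the small nuclear RNA (snRNA) genes of Caenorhabditis elegans, examined for binding of the zinc-finger protein ZTF-7. Members were all genes with the biotype snRNA in the Ensembl annotation of assembly WBcel235, except those whose names begin with sls-, the spliced leader RNA genes. This gave 99 of 46926 annotated genes. They lay on chromosomes I (12 genes), II (13), III (7), IV (36), V (28) and X (3), and were 22 to 187 nt long. Several members share 1 Ensembl name, with 74 names for 99 genes, so each is called by its RefSeq symbol, matched by gene ID for 99 of 99.

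The assay was ChIP-seq: chromatin was immunoprecipitated through the protein's tag and the recovered DNA was sequenced. Both samples came from strain OP332, whose genotype is unc-119(tm4063) III with the integrated transgene wgIs332, and which carries eGFP-ztf-7. They were whole L4 larvae of pooled sex, in 2 biological replicates of 1 group, so all binding is that of the tagged transgene product averaged over every tissue. The sources used here name neither the promoter of the transgene nor the extraction protocol, and no control sample was analysed. The authors deposited 30000 regions for each replicate and for the pooled replicates, and 1311 pooled regions that passed a cutoff on the irreproducible discovery rate (IDR). Each region has a signal value from the peak caller, which ranks regions within 1 list only, and the number of reads behind a list is unknown. A gene was scored by the strongest region with its summit at most 1000 bp from the gene's 5' end. Summit positions are counted along the gene's strand, with negative values upstream.

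The spliceosome removes introns with the help of 5 small RNAs, named U1, U2, U4, U5 and U6, each packed with proteins into a particle. In animals an upstream proximal sequence element, bound by the snRNA activating complex, starts their transcription. RNA polymerase II makes all of them except U6, which RNA polymerase III makes from a promoter that also has a TATA box. Nematodes also have SmY RNAs, encoded by smy genes, which bind Sm proteins as the spliceosomal RNAs do and are linked to spliced leader trans-splicing. Many of the spliceosomal RNA genes are repeated through the genome in nearly identical copies.

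Sequence identity of at least 75% placed 73 members in 5 families, and the 10 smy genes were grouped by name. The other 16 members included single sequences and groups of fewer than 5. Each family is named here after 1 member, because the annotation gives none of them a U name. Sequences from 5 groups are printed so that their defining letters can be seen. These are ACTTACC in sup-6, GTAGTA in F11A5.14 (a member of the C47F8.9 family), TTTGCGC in C52E4.8 and ATTTTTG in smy-1. No letters are marked in M163.13, the member outside the families with the strongest region. Sequences are from the RefSeq copy of WBcel235 (build ce11), 5' to 3', with the marked letters in capitals.
sup-6, chrII:12944803-12944967, minus strand: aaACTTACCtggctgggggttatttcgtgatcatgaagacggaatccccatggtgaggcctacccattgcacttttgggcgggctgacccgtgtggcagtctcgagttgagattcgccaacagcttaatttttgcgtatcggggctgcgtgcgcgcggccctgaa
F11A5.14, chrV:16225701-16225887, minus strand: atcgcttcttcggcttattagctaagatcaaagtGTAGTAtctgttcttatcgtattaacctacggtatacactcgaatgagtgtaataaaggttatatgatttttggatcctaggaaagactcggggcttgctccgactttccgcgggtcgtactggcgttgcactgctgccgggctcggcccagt
C52E4.8, chrV:11980118-11980261, plus strand: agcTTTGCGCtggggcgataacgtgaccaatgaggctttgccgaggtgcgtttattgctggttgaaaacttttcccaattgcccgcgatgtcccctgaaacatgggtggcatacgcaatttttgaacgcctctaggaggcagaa
smy-1, chrIV:9511763-9511839, minus strand: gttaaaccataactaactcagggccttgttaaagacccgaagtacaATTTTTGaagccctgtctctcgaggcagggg
M163.13, chrX:14476867-14476946, plus strand: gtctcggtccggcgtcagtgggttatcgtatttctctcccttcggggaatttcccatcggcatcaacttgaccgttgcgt

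Apart from ATTTTTG, each run of letters searched marked 1 family, with 1 exception outside it. ACAGAGA, which in U6 pairs with the 5' splice site, was in 22 of 24 genes of the R07E5.16 family and in 0 other members. ACTTACC, which in U1 pairs with the 5' splice site, was in 12 of 13 genes of the sup-6 family, and sup-6 and sup-39 are known U1 genes of this species. GTAGTA, which in U2 pairs with the intron branch site, was in 18 of 19 genes of the C47F8.9 family and in 1 member outside the families. TTTGCGC, letters of the U4 end that pairs with U6, was in 5 of 5 genes of the C52E4.8 family. ATTTTTG, the letters at which Sm proteins bind, was in 59 members, including 10 of 10 smy genes and 19 of 19 genes of the C47F8.9 family, and in 0 of 24 of the R07E5.16 family. The letters are a description of sequence, and no RNA was measured.

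Most pairs within a family were nearly identical, with some divergent members. Median pairwise identity was 99.0% in the R07E5.16 family, 98.9% in the C47F8.9 family, 95.2% in the sup-6 family, 93.5% in the F38E11.10 family and 99.0% in the C52E4.8 family. The lowest identity between 2 genes of a family was 62.96% in the R07E5.16 family, whose members were joined through intermediates, and 78.5% in the sup-6, 85.4% in the F38E11.10, 87.6% in the C47F8.9 and 95.8% in the C52E4.8 family. The 10 smy genes, grouped by name, were less alike, with a median of 70.9% and a range of 54.4 to 89.2%. The 99 genes held 74 distinct sequences, and 32 genes had an exact copy. Reads from such copies cannot be assigned to 1 of them, so which copy was bound is uncertain wherever a region rests on repeated sequence.

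The DNA just upstream was less repeated and carried 3 short elements, searched after the members' upstream sequences had been seen. They were CGGAACC (the first element), TGTCNG (the second) and TATATAA (the third), read on the gene's strand within 100 bp before the 5' end. The 9 members with an IDR summit are printed first, each as the 100 bp before the gene, with the elements in capitals. Only exact matches were counted. The sequences show the elements in register in W05B2.8, F54D8.7 and Y9C9A.111, and no exact match to any of the 3 in F38E11.10 or smy-1. Both of the latter hold cgaaacc, which differs from the first element by 1 letter.
W05B2.8, chrIII:10989579-10989678, plus strand: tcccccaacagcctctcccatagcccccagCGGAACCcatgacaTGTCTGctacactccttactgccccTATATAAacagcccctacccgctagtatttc
F54D8.7, chrIII:5080899-5080998, minus strand: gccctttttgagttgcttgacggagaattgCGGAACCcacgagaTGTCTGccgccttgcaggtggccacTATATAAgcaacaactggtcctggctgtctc
R07E5.16, chrIII:4414085-4414184, plus strand: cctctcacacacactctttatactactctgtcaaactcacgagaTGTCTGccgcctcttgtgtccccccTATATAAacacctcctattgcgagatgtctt
Y9C9A.111, chrIV:4930854-4930953, plus strand: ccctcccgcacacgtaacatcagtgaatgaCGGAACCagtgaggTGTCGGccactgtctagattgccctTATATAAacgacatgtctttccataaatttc
M163.13, chrX:14476767-14476866, plus strand: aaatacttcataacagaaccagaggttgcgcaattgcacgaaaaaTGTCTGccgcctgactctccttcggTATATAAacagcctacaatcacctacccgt
sup-6, chrII:12944968-12945067, minus strand: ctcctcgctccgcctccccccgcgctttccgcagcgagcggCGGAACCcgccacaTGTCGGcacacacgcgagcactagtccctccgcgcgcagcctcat
F38E11.10, chrIV:9444542-9444641, plus strand: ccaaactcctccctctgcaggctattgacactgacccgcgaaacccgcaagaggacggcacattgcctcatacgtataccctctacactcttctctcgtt
C52E4.8, chrV:11980018-11980117, plus strand: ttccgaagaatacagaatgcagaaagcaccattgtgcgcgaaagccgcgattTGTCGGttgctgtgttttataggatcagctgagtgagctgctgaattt
smy-1, chrIV:9511840-9511939, minus strand: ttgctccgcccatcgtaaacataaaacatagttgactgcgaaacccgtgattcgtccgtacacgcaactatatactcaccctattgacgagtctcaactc

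A further 5 upstream sequences are printed for comparison. T11F9.15 encodes the same RNA as C52E4.8, F38E11.11 the same as F38E11.10, Y17G9A.85 and T08B6.62 the same as F54D8.7, and K09B11.12 the same as R07E5.16. None of these 5 had an IDR summit.
T11F9.15, chrV:11478048-11478147, plus strand: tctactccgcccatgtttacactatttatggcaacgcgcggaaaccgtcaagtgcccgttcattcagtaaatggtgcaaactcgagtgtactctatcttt
F38E11.11, chrIV:9464639-9464738, minus strand: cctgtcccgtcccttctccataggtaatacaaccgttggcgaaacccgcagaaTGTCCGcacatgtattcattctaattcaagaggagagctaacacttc
Y17G9A.85, chrIV:4864736-4864835, minus strand: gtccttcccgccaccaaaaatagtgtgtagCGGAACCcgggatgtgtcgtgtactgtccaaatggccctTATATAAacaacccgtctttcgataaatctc
T08B6.62, chrIV:4885650-4885749, minus strand: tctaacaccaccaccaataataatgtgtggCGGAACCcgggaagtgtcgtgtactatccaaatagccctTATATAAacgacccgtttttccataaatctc
K09B11.12, chrIV:13438997-13439096, plus strand: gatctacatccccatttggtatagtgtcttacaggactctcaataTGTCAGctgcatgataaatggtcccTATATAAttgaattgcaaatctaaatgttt

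The elements were far commoner at members than elsewhere. The first was in 27 of 99 upstream sequences (27.3%) against 0.248% of the 31421 other genes searched, at a median position of -61. The second was in 53 (53.5%) against 5.80%, at a median of -47, and the third in 18 (18.2%) against 2.40%. On either strand these shares at other genes were 0.398%, 10.8% and 3.45%. Both the first and the second element were in 12 members (12.1%) and in 0.102% of other genes. The 3 patterns do not overlap each other. Because they were read off the members, their higher share there is a description and tests nothing.

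Element positions differed by family. In the R07E5.16 family the first element was in 6 of 24 genes, always at -70, the second in 12 at -56 or -55, and the third in 15 at -31 or -30. In the C47F8.9 family the second was in 18 of 19, always at -47, and the first in 0. The sup-6 family had the first and the second in 8 of 13 genes each and the third in 0. In the F38E11.10 family the first and the second were in 6 of 12 each. The element TATATAA was thus found mainly upstream of genes with the ACAGAGA letters. Among smy genes the first was in 5 of 10 and the second in 1.

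An IDR summit lay within 1000 bp of the 5' end of 9 of 99 snRNA genes (9.09%), against 6.09% of the 31563 annotated genes other than piRNA. The share was thus near that of genes at large, and below those of nuclear tRNA genes (29.2%, 179 of 612), snoRNA genes (26.3%, 91 of 346) and spliced leader genes (9 of 30). The weaker pooled regions gave 47 of 99 (47.5%, against 40.9%). The list of replicate 1 gave 52 (52.5%, against 48.3%), that of replicate 2 gave 48 (48.5%, against 41.3%), and both gave 36 (36.4%, against 31.5%). Another 16 members had a region only in replicate 1 and 12 only in replicate 2, while 35 had none in any list. The shares of genes other than piRNA for these counts were not computed, so the counts do not set members apart from other genes. When each replicate was cut to its 1311 strongest regions, replicate 1 gave 8 members (8.08%, against 6.04%) and replicate 2 gave 7 (7.07%, against 5.52%). The same 6 members, all with an IDR summit, were in both.

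The members' IDR summits lay close to the genes. The strongest summit lay 1 to 100 bp upstream for 7 of 99 snRNA genes (7.07%), against 1.18% of genes other than piRNA. That position was more frequent still in the related classes, at 16.7% of spliced leader genes, 52 of 346 snoRNA genes and 16.3% of tRNA genes, and was found at 0.796% of coding genes. Among genes that had an IDR summit at all, it was there in 77.8% of snRNA genes (7 of 9), 55.6% of spliced leader, 57.1% of snoRNA, 55.9% of tRNA and 14.2% of coding genes. The median position was -25 for the 9 snRNA genes and -128 for all genes with a summit. These shares were not tested, and this position was chosen after the data had been seen.

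**Figure D1:**
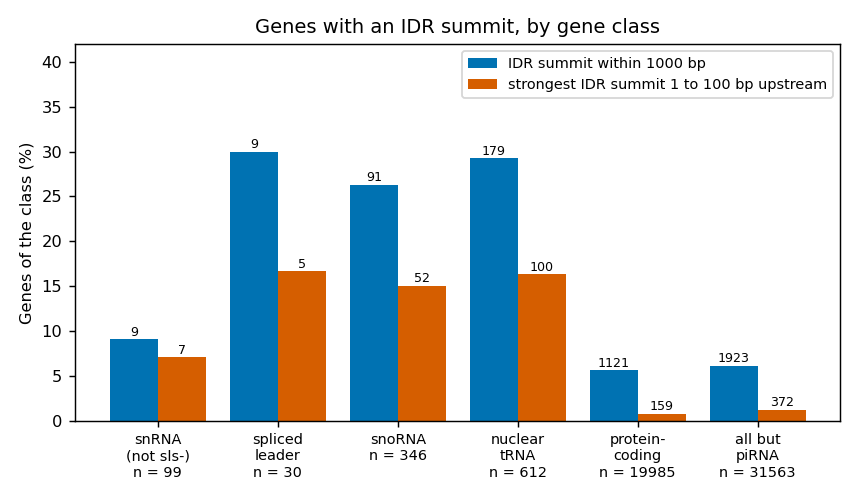
Percentage of genes in each class with an IDR summit within 1000 bp of the 5' end, and with the strongest such summit 1 to 100 bp upstream, as bars from 0. The snRNA genes stand at 9.09% and 7.07%, between all genes and the tRNA, snoRNA and spliced leader classes.

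The R07E5.16 family, with the U6 letters, held 4 of the 9. W05B2.8, at chrIII:10989679-10989780, had the strongest region, with a pooled signal of 162.7 (rank 84). Its signal was 101.2 in replicate 1 (rank 38, summit -26) and 64.9 in replicate 2 (rank 186, summit -70). Both replicates thus placed a strong region just before the gene, over the stretch printed above that holds its 3 elements. The region spanned chrIII:10989522-10989692, and W05B2.8 lies inside the coding gene dhc-4, with no other gene's 5' end in the window.

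F54D8.7, at chrIII:5080798-5080898, had a pooled signal of 109.3 (rank 186) with the summit at -25. Replicate 1 gave 37.6 (rank 446, summit -26) and replicate 2 gave 60.1 (rank 228, summit -22), so the summits lay within a few bases of each other. The 5' end of cox-6A, which encodes a subunit of cytochrome c oxidase, was 801 bp from the same summit.

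Y9C9A.111 and R07E5.16 were weaker. Y9C9A.111 had a pooled signal of 62.0 (rank 771, summit -8), with 29.9 in replicate 1 (rank 761, summit -10) and 27.8 in replicate 2 (rank 1923, summit 108). R07E5.16 had 65.3 (rank 688), with 25.2 in replicate 1 (rank 1100, summit 49) and 37.2 in replicate 2 (rank 892, summit 83). Its pooled summit at 94 fell inside the gene, near the 3' end of the 102-nt RNA. R07E5.16 lies in mpc-1, a mitochondrial pyruvate carrier gene, and Y9C9A.111 in the coding gene Y9C9A.8. Y9C9A.111 was low in replicate 2, where it fell outside the 1311 strongest regions.

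M163.13, an 80-nt gene at chrX:14476867-14476946 in none of the families, had the second strongest region of all members. Its pooled signal was 149.8 (rank 99, summit -52), with 74.6 in replicate 1 (rank 67, summit -51) and 74.8 in replicate 2 (rank 141, summit -65). It was high in both replicates, and its upstream sequence holds the second and the third element at -55 and -30, the spacing of the R07E5.16 family. The gene itself holds none of the letters searched. The non-coding RNA genes M163.15 and M163.12 had 5' ends 381 and 730 bp from the summit.

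The remaining spliceosomal families gave 1 IDR member each, except the C47F8.9 family. C52E4.8, with the U4 letters, had a pooled signal of 85.003 (rank 368), with 41.6 in replicate 1 (rank 340, summit -24) and 36.7 in replicate 2 (rank 930, summit -25). The replicate summits were 1 bp apart. The same region was the IDR region of snr-4, a gene for an Sm protein of the same particles, whose 5' end lay on the other side at a summit distance of -370. The 5' end of the non-coding RNA gene C52E4.14 was 134 bp from the summit, which lies inside that gene. Which of these genes the binding concerns cannot be told apart.

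F38E11.10 had a pooled signal of 75.8 (rank 476, summit -34). Replicate 1 gave 31.1 (rank 697, summit -38) and replicate 2 gave 48.3 (rank 434, summit -102). The region was thus high in both replicates, with no exact match to any of the 3 elements upstream. The non-coding RNA gene F38E11.24, which contains F38E11.10, has its 5' end 158 bp from the IDR summit, and the 5' ends of the coding genes F38E11.9 and hsp-12.3 were 568 and 899 bp away. sup-6, with the U1 letters, had 61.2 (rank 804, summit -51), with 32.0 in replicate 1 (rank 650) and 31.3 in replicate 2 (rank 1420). Its replicate 2 region fell just below the 1311 strongest, and 2 non-coding RNA genes, F58G1.11 and F58G1.12, had 5' ends 34 and 110 bp from the IDR summit.

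The last IDR member was smy-1, with 53.7 (rank 1064), 23.2 in replicate 1 (rank 1321) and 34.6 in replicate 2 (rank 1085). Its summit lay at 354, well past the 77-nt gene, and only 19 bp from the 5' end of smy-2, another SmY RNA gene, which is annotated as a snoRNA and so is no member. For 7 of the 9 IDR members their own 5' end was the nearest one to the summit, with sup-6 and smy-1 as the exceptions. Of the 9, 6 lie inside another annotated gene.

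The 9 regions were ordinary in strength among IDR peaks. Their median signal was 75.8 against 66.4 for all 1311 peaks, and 5 of 9 lay above the latter. In replicate 1 the −log10 q reached the list's ceiling of 2.77 for 9 of 9. In replicate 2 the −log10 q reached the ceiling of 1.98 for 4 of 9 and was lowest at Y9C9A.111 (1.52). There R07E5.16 was already below the ceiling at rank 892, so the 2 counts cannot be compared between the lists.

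**Figure D2:**
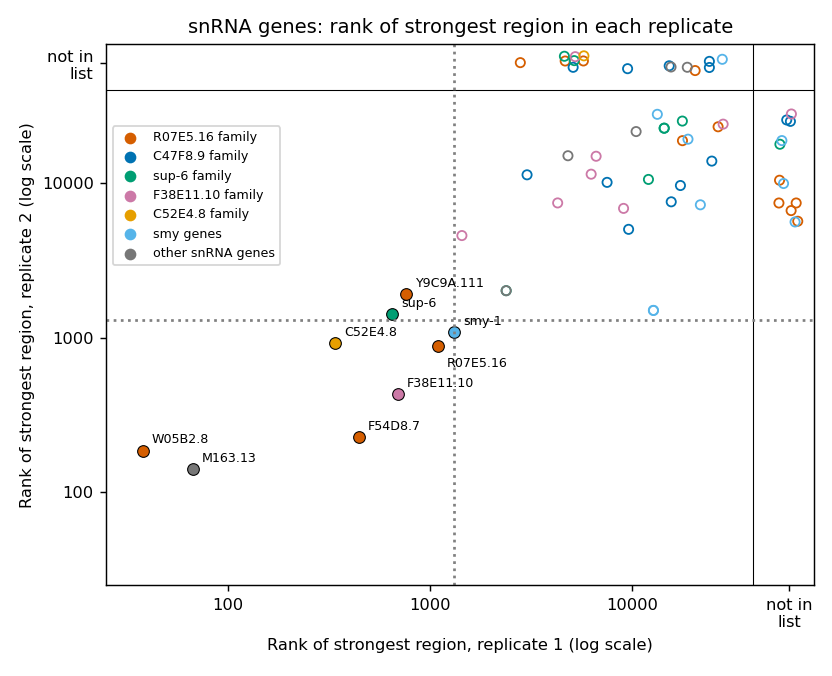
Rank of the strongest region of each snRNA gene in replicate 1 (x axis) and replicate 2 (y axis), both on log scales and coloured by family, with filled points for IDR members, dotted lines at rank 1311 and outer strips for members with no region in a list. The 9 IDR members sit at low ranks in both, led by W05B2.8 (38 and 186) and M163.13 (67 and 141).

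Just below the IDR threshold, signals fell from the 53.7 of smy-1 to the 44.7 of F32B5.9, a gene of the F38E11.10 family on chromosome I. Its summit was at -42 (rank 1595), with 22.1 in replicate 1 (rank 1441, summit -53) and 19.96 in replicate 2 (rank 4598, summit -74). sup-39 followed with 41.9 (rank 1816, summit -16). Its signal was 16.8 in replicate 1 (rank 2387, summit -16) and 27.2 in replicate 2, where the strongest region was another one at 703 (rank 2021). Both genes therefore had a region just upstream that did not pass the threshold. The same region is that of mir-1831, a 22-nt gene inside sup-39 that Ensembl lists with the biotype snRNA.

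smy-9 and smy-10 shared the next region, with a pooled signal of 38.2 (rank 2174). It was strong only in replicate 2, with 30.6 (rank 1506) against 5.48 in replicate 1 (rank 12795). Then came 3 genes of the C47F8.9 family, F08G2.11 (26.7, summit 101), Y57G11C.35 (25.97, summit 690) and F08G2.10 (25.4, summit -282). smy-11 and smy-12 shared a region of signal 20.5 with no region in replicate 1. At the edge of the window, the smy-6 summit lay 865 bp away (12.6) and that nearest to F54C8.9 lay 1057 bp away (14.5).

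Below these the pooled regions thinned out into weak ones. The median rank of the 47 members' pooled regions was 9259 and 20 ranked past 10000. They came from 42 separate regions, 5 of them shared by a pair of members. The summit lay upstream for 28 of 47 (59.6%, against 63.5% of all genes with a pooled summit). The median position was -25 and the median distance in either direction 259 bp. A pooled summit 1 to 100 bp upstream was found for 12 of 99 (12.1%, against 4.22% of genes other than piRNA). Of these 12, 7 were the IDR members with that position.

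**Figure D3:**
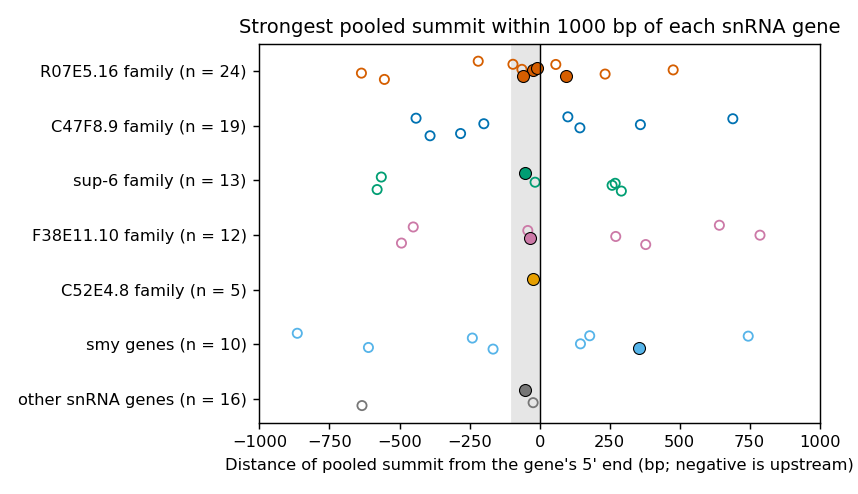
Position of the strongest pooled summit (x axis, bp from the gene's 5' end, negative upstream) for the 47 members with one, in a row per family, with filled points for IDR members and shading over the 100 bp upstream. Of the 9 IDR members 7 lie between -59 and -8, while the other summits spread over the window.

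By family, the smy genes had pooled regions most often, at 8 of 10, against 40.9% of genes other than piRNA. The 8 include smy-9 and smy-10, which share a region, and smy-11 and smy-12, which share another. While 35 of all 99 members had no region in any list, this held for none of the 10 smy genes. The smy summits were not close to the genes. The F38E11.10 family had pooled regions at 8 of 12 genes, the sup-6 family at 7 of 13, the R07E5.16 family at 12 of 24 and the C47F8.9 family at 8 of 19. The C52E4.8 family had 1 of 5, and the remaining members 3 of 16. The C47F8.9 family, with the U2 letters, was the only family with 0 IDR summits, in 19 genes. The sup-6, F38E11.10 and C52E4.8 families had 1 each, and 6.09% of genes other than piRNA had one. With 19 genes, 0 cannot be told apart from that share. In 9 of the 19 genes at least 90% of the 30-base words in the 300 bp upstream occur once in the genome. With families of this size the shares were not compared by a test.

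The replicates differed in the regions closest to the genes. In replicate 1 the strongest summit lay 1 to 100 bp upstream for 20 of 99 members (20.2%, against 5.78% of genes other than piRNA). In replicate 2 it did so for 6 (6.06%, against 3.61%), and all 6 were among the 20. Among the 1311 strongest regions the counts were 7 in replicate 1 (7.07%, against 1.19%) and 4 in replicate 2 (4.04%, against 0.906%). Of the 20 members with such a summit in replicate 1, 7 had no region at all in replicate 2, at replicate 1 ranks from 4637 to 24213. They were Y47H9A.2, F56H6.14 and F11A5.14 of the C47F8.9 family, ZK897.4, K09C6.12, F10D2.13 and F08H9.11, and 0 of them had a pooled region. The close upstream position of the members therefore rests more on replicate 1 than on replicate 2.

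Single elements were found both at members with a region and at members without one. The second element was in 7 of 9 IDR members and in 19 of the 35 members with no region in any list (54.3%). The first was in 4 of 9 and 7 of 35, and the third in 5 of 9 and 7 of 35. Set against the 90 members with no IDR summit, single elements and combinations were both more frequent at IDR members. The first was in 44.4% against 25.6%, the second in 77.8% against 51.1% and the third in 55.6% against 14.4%. The first and the second together were in 4 of 9 (44.4%) against 8 of 90 (8.89%). Among the 35 members with no region in any list, 4 had both (11.4%). All 3 elements were found together at 3 members, W05B2.8, F54D8.7 and Y9C9A.111, each with an IDR summit. These 3 are all of the R07E5.16 family, which holds 15 of the 18 members with the third element. Family and combination therefore cannot be told apart. Because the elements were read off the members' own upstream sequences, these shares are a description and were not tested. K03B8.10, of the C52E4.8 family, has the first and the second element at -62 and -48 and had no region in any list. F38E11.10 has an exact match to neither, only the near match cgaaacc, and had an IDR summit. A match is a run of letters and no evidence of a bound site.

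**Figure D4:**
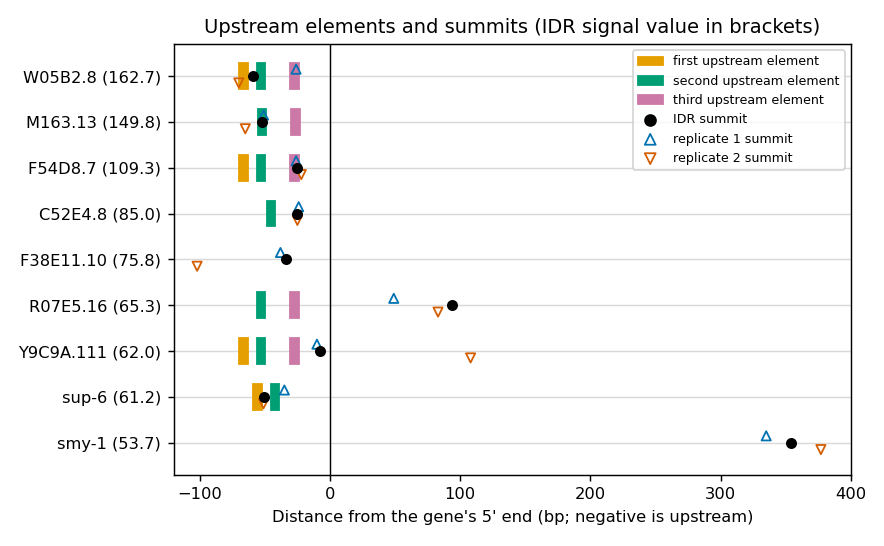
Positions of the 3 upstream elements (coloured boxes) and of the IDR, replicate 1 and replicate 2 summits (symbols) at the IDR members, in bp from the 5' end, negative upstream, with the IDR signal in brackets. In 7 of 9 genes the IDR summit lies between -59 and -8, while R07E5.16 and smy-1 have theirs downstream at 94 and 354.

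Genes for identical RNAs differed in the regions beside them. The RNA of R07E5.16 is encoded by 14 genes, on chromosomes III (5 genes), IV (8) and V (1). Of the 14, W05B2.8, R07E5.16 and Y9C9A.111 had IDR summits, 5 had pooled regions, 7 a region in replicate 1 and 5 in replicate 2. In any list, 6 had none. The shares of genes other than piRNA were 6.09% (IDR), 40.9% (pooled), 48.3% (replicate 1) and 41.3% (replicate 2). The pooled and replicate counts are near these shares, so by themselves they set the copies apart from no other 14 genes. The third element was upstream of 11 of the 14, including 3 of the 3 with an IDR summit and 5 of the 6 with no region. A group of 6 copies, the K09B11 genes, lies within 8.06 kb of chromosome IV. None of these 6 had an IDR or pooled region, and K09B11.16 had the only replicate region, in replicate 2 (rank 10491). The third element is upstream of 6 of 6. In this group, only 18.1 to 43.5% of the 30-base words in the 300 bp upstream occur once in the genome.

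All IDR members had largely unique upstream DNA. Members with no region ranged from 0 to 100%, as did members with a pooled region but no IDR summit. Uniqueness was at least 90% in 68 members, of which 9 had an IDR summit, 34 a pooled region and 24 no region. In the other 31 members 0 had an IDR summit, 13 a pooled region and 11 no region. Among genes other than piRNA, 6.09% had an IDR summit and 40.9% a pooled one. With 31 genes, 0 cannot be told apart from the IDR share, and 13 of 31 is near the pooled share. Having no region was about as frequent in both sets, at 24 of 68 and 11 of 31. Of the 9 IDR members, 8 had fully unique upstream DNA, with R07E5.16 at 90.8%, while 6 of the 9 had no unique word within the gene itself. R07E5.16 is among these 6, and its summit at 94 lies inside the gene. The summit of smy-1 lies at 354. For these 2 genes upstream uniqueness does not describe the DNA under the summit. The sources used here do not say whether the authors' lists used only reads that map once, and the part of mappability in the calls was not tested.

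**Figure D5:**
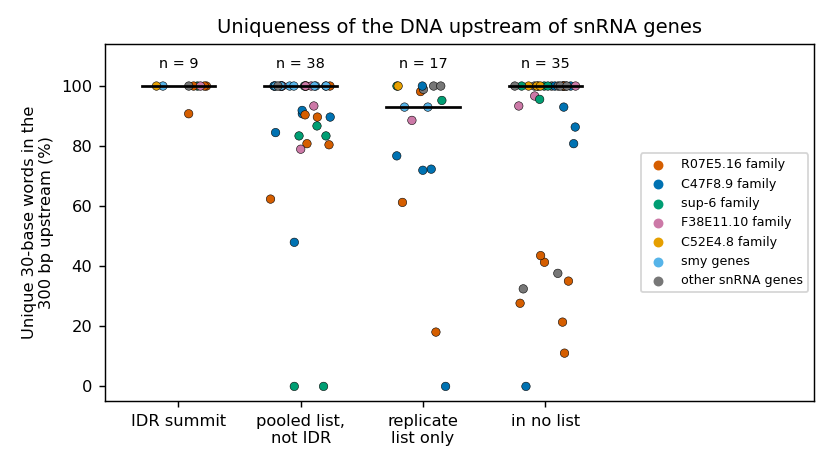
Percentage of 30-base words in the 300 bp upstream that occur once in the genome (y axis), for each snRNA gene grouped by the lists in which it had a region, coloured by family, with the median as a line. All 9 IDR members lie above 90%, while members with no region, and those in the pooled list without an IDR summit, spread from 0 to 100%.

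Copies with fully unique upstream DNA also differed. C52E4.8 had a pooled signal of 85.003, whereas T11F9.15, with the same RNA, had no region in any list. F38E11.10 had 75.8 (rank 476) and F38E11.11 had 19.3 (rank 8362, summit 272), with 8.78 in replicate 1 and 11.8 in replicate 2. F54D8.7 had 109.3, T08B6.62 had 18.1 (rank 9446, summit -95) from replicate 2 alone, and Y17G9A.85 had none. In each of these sets the copies lie in different surroundings and their printed upstream sequences differ. Y17G9A.85 and T08B6.62 have the first and the third element without the second, and F38E11.11 has an exact match to the second where F38E11.10 has none.

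Genes for proteins of the same particles, and for proteins that make, assemble or modify snRNAs, were scored in the same way, from a list by name of which 40 of 46 names were found. An IDR summit lay within 1000 bp of the 5' end of 6 of 40 (15%, against 5.61% of protein-coding genes). A pooled one did so for 25 of 40 (62.5%, against 40.2%). The 6 IDR summits lay at -919 (lsm-3), -370 (snr-4), -237 (snr-3), -202 (lsm-7), -27 (snpc-3.4) and 71 (ints-4). The 7 Sm protein genes, whose products form the ring on the RNA, had 2 IDR and 7 pooled summits, and the 8 LSm genes, most of whose products form the ring on U6, had 2 and 7. The 3 genes for particle-specific proteins, rnp-2, rnp-3 and rnp-7, had 0 and 1. The snRNA activating complex had 1 IDR and 2 pooled summits in 7 genes, and Integrator, which cuts the 3' ends of snRNA precursors, had 1 and 8 in 11. ints-4 had the strongest, with a pooled signal of 138.5 (ranks 83 in replicate 1 and 145 in replicate 2, summit 71). snr-4 had the region shared with C52E4.8, and snpc-3.4 had 51.7 at -27 (ranks 1839 and 1289). The 2 assembly genes, smn-1 and smi-1, and the 2 RNA modification genes, usip-1 and mett-10, had no pooled summit.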

How the data were processed

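The authors deposited, per the notes that accompany the files, lists of regions on build ce11 for each of the 2 replicates and for the pooled replicates, and an IDR list derived from these. Those notes derive each region list from ChIP alignments and 1 further file, taken to be the control. The deposited signal is a value the peak caller gave each region. The deposited q-values are −log10 q. For peak caller, aligner and IDR cutoff, the name or value is not given in the sources used here. Without read counts, depth and counting error are unknown.

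Genes came from Ensembl release 115, and symbols and sequence from RefSeq on the same assembly. The ce10 lists were not used, and the gene sequences of some families are not reported here. Members and lists were chosen with earlier results of these data known. Named genes were every member with an IDR summit, the 10 further members of highest pooled signal, and those nearest inside and outside the 1000 bp window; other members are named as copies or examples, chosen after their values were seen. Families used edit-distance identity (edlib 1.3.9.post1). With 1 group no test was run, and counts stand beside those of all genes other than piRNA. The scoring was checked on simulated summits. Alternatives were windows of 500 and 2000 bp, nearest 5' ends, region edges, stronger regions, each replicate alone and members merged into loci. Python 3.11.15, numpy 2.4.6, pandas 2.3.3 and matplotlib 3.10.9 were used.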

Additional observations from a re-analysis of the deposited data

How the results depend on the processing

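The count of 9 members with an IDR summit was 9 with the 500 bp window, 10 with 2000 bp, 7 with nearest 5' ends only, 10 from region edges, 9 with members within 1000 bp merged into 89 loci, and 5 in the upper 50% of IDR peaks. Leaving out a replicate meant taking the 1311 strongest regions of the other in place of the IDR list. It gave 7 (without replicate 1) and 8 (without replicate 2). For the count of 7 with the summit 1 to 100 bp upstream, added after seeing the data, the same lists gave 4 (without replicate 1) and 7 (without replicate 2). With the strongest 10000 regions, 27 members had a pooled summit instead of 47, 15 had summits in both replicates instead of 36, and 15 pooled summits lay upstream instead of 28. For the pooled results, leaving out a replicate meant taking the full list of the other in place of the pooled list. Without replicate 1 or 2 the count with a summit was then 48 or 52 and the upstream count 25 or 28. With nearest 5' ends only, 21 members had summits in both replicates. The median pooled position of -25 was -16 with 2000 bp, -53 with nearest 5' ends only, -16 with the strongest 10000 regions, and -23.5 and -13 without replicate 1 and 2. Fewer regions or assignments lower the counts by construction; the cause of the other shifts was not tested. Of 43 alternative values, 33 stayed within 1.5 times the count, or 1 SD over replicates for the median. No paired analysis was possible because the study has 1 group. Depth is unknown, so a member with no region may be one whose binding was not detectable here.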
